A study of Homo sapiens with 9 samples.

Results

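The 35 genes described here belong to glycolysis and to the transcriptional response to low oxygen. They were taken by gene symbol, through the Ensembl ID of each row, from the 62257 gene rows of an RNA sequencing experiment, by a rule that uses the gene names alone. By role they comprise 9 enzymes or isoenzymes from glucose phosphorylation to triose phosphate, 6 of lower glycolysis, 4 regulators of glycolytic flux, 4 hypoxia-inducible factor (HIF) subunits or oxygen sensors, 5 secreted, vessel or pH targets of HIF and 7 intracellular targets. All 35 had a row, and 33 of them were among the 16947 genes that passed the expression filter and were tested. HK2 and CA9 did not pass it.

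The cells were A549, a human line established from a lung adenocarcinoma. They had been kept for 96 h with apoptotic extracellular vesicles (apoEVs, membrane particles shed by dying cells) from cisplatin-induced apoptosis (DDP_apoEV), with apoEVs from staurosporine-induced apoptosis (STS_apoEV), or with phosphate-buffered saline (control). Cisplatin is a platinum drug that crosslinks DNA, and staurosporine is a broad inhibitor of protein kinases. Each group held 3 libraries, 9 in all. The labels name neither the cells that shed the vesicles nor separate cultures behind the libraries, so the p-values rest on the spread among these libraries, which may be technical. No sample of either drug alone, and none kept in low oxygen, was analysed here.

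Glycolysis splits glucose into pyruvate in the cytosol, and phosphofructokinase and pyruvate kinase are among its regulated steps. HIF is a pair of proteins, an alpha subunit (HIF-1α from HIF1A or HIF-2α from EPAS1) and the constant partner ARNT. With oxygen present, prolyl hydroxylases encoded by the EGLN genes mark the alpha subunit for destruction through the VHL complex, so HIF activity is set largely at the protein, which RNA does not show. When the alpha subunit is stable, HIF binds hypoxia response elements with the core ACGTG and raises glycolytic enzymes, angiogenic factors and many of the genes below. Lung adenocarcinoma cells, like many tumour cells, are known for high glycolysis also with oxygen present.

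The core, read on both strands as ACGTG or CACGT, was looked for in the 250 bases before the first start listed for each gene in a RefSeq promoter table (GRCh38.p14). The table held 32 of the 35 genes, and VEGFA, BNIP3L and NDRG1 had no entry. The core stood in 14 of the 32 windows (43.8%) and in 5101 of the 27305 windows of all genes (18.7%). A core on both strands at once, CACGTG, is also the E-box read by other factors, and it stood in 4 of the 32 (12.5%) and in 6.49% of all windows. A match is a description of the letters, not a site shown to be bound. The stretches below, 5′ to 3′ on the strand of the gene with the core in capitals, come from genes whose levels are followed in the results, up to 20 bases on either side within the window.
PGK1, chrX:78104026-78104089, plus strand, cores 202 and 183 bases before the start: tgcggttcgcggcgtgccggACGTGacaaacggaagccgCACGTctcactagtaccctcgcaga
P4HA1, chr10:73096928-73096972, minus strand, core 86 bases before the start: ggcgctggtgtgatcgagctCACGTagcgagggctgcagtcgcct
EGLN1, chr1:231422288-231422320, minus strand, core 13 bases before the start: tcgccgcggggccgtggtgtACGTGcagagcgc
BNIP3, chr10:131982032-131982077, minus strand, an E-box 134 bases before the start: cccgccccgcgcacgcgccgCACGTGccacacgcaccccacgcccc
ANGPTL4, chr19:8363905-8363945, plus strand, core 234 bases before the start: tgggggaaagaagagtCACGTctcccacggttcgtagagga
PFKFB3, chr10:6202804-6202849, plus strand, an E-box 108 bases before another start that the table lists for this gene, the first having no core: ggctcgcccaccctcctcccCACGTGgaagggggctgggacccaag

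Total counts per library ran from 15949255 to 16526399 in DDP_apoEV, from 13799950 to 14816996 in STS_apoEV and from 14356195 to 15492993 in control. Mitochondrial-genome transcripts took 12.1% to 13.1% of the counts in DDP_apoEV, 12.7% to 13.1% in STS_apoEV and 11.4% to 12.5% in control. The summed level of 8 lung epithelial markers (EPCAM, KRT7, KRT8, KRT18, KRT19, CDH1, CLDN4 and MUC1), none of them at 0, was 6925 to 7518 CPM (counts relative to the library total) in DDP_apoEV, 7300 to 8755 CPM in STS_apoEV and 11218 to 12269 CPM in control. KRT8 and KRT18 carry most of this sum and fell with either vesicle. The 8 genes did not move as 1. By the calls defined in the next paragraph, 3 fell and none rose with DDP_apoEV. With STS_apoEV 5 fell while KRT19, CLDN4 and MUC1 rose. Of all tested genes 15.5% were called with DDP_apoEV and 32.8% with STS_apoEV. The part of these marker changes in the results below was not tested. Of 8 alveolar type 2 markers, 7 in DDP_apoEV, 6 in STS_apoEV and 6 in control were under 1 CPM, with sums of 19.1 to 24.1 CPM in DDP_apoEV, 25.03 to 33.0 in STS_apoEV and 25.8 to 29.3 in control, and SFTPA1 was at 0 in all groups. The 2 that were tested, NAPSA and ABCA3, were called higher in STS_apoEV than in DDP_apoEV (log2 fold changes 1.57 and 0.36). Against control neither was called with either vesicle. Sums for leukocyte markers (9 genes) were 14.8 to 16.1 CPM in DDP_apoEV, 20.7 to 26.1 in STS_apoEV and 11.3 to 18.0 in control, with PTPRC at 0 in DDP_apoEV and control and CD3E at 0 with either vesicle. CD14 carried most of these sums, at 11.1 CPM in DDP_apoEV, 16.4 in STS_apoEV and 9.26 in control. ITGAM followed at 3.45, 6.43 and 3.14 CPM. Both were called higher in STS_apoEV than in control and than in DDP_apoEV. Endothelial markers (6 genes) summed to 1.63 to 1.82 CPM in DDP_apoEV, 2.83 to 4.52 in STS_apoEV and 1.78 to 2.07 in control. Of these PECAM1, at 0.436 CPM in DDP_apoEV, 2.51 in STS_apoEV and 0.160 in control, was called higher with STS_apoEV than in control (log2 fold change 3.92). Its counts in control were 1, 2 and 4, so the fold change rests on a base near 0. PECAM1 came through the expression filter on its STS_apoEV libraries, so its being tested was not independent of this difference. Fibroblast markers (8 genes) summed to 3.39 to 3.64 CPM in DDP_apoEV, 3.66 to 4.35 in STS_apoEV and 3.20 to 3.61 in control. Erythroid markers summed to under 1 CPM in every library.

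Against control, 15 of the 33 tested genes changed with DDP_apoEV, 8 higher and 7 lower, where 15.5% of all 16947 tested genes did (7.16% higher, 8.32% lower). With STS_apoEV 19 changed, 7 higher and 12 lower, where 32.8% of all tested genes did (15.9% higher, 16.8% lower). Between the vesicle types 20 differed, 7 higher and 13 lower in STS_apoEV, where 39.7% of all tested genes differed (20.2% higher, 19.5% lower). A gene was called changed at a Benjamini-Hochberg adjusted p under 0.05 in edgeR's quasi-likelihood test over all tested genes, with no fold minimum. Adjusted p-values below are from that test where no other is named. The median log2 fold change of the 33 genes was 0.04 with DDP_apoEV (−0.85 to 1.74), −0.05 with STS_apoEV (−1.21 to 0.82) and −0.07 between the types (−1.98 to 0.998). Over all tested genes the median was −0.00 with DDP_apoEV, 0.01 with STS_apoEV and 0.03 between the types. Of the 15 calls with DDP_apoEV only ANGPTL4, EPAS1 and VEGFA held in every alternative setting, while 16 of the 19 calls with STS_apoEV and 15 of the 20 between the types held in every setting in which their gene was tested (14 settings for PDK1, 16 for the others). In each comparison the 3 and 3 libraries of 20 of the 33 genes did not overlap. Of all tested genes this held for 32.2% with DDP_apoEV, 43.3% with STS_apoEV and 47.5% between the types. The genes therefore moved in both directions within each comparison, and the median of the group stayed near 0.

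Both comparisons with control share the 3 control libraries, so changes in the same direction in both are not independent of each other. Of the 10 genes called in both, EPAS1 and PFKFB4 were higher with either vesicle. ALDOC, EGLN1, HIF1A, P4HA1, PGK1 and VEGFA were lower with either. PFKP and PGAM1 were higher with DDP_apoEV and lower with STS_apoEV. Of all 33, the 7 genes ALDOA, ANKRD37, ENO2, HK1, P4HA2, PDK3 and PFKM passed the test in none of the 3 comparisons. Of these, ALDOA with STS_apoEV passed in 3 alternative settings and PFKM between the types in 2, as given below. The shares of all tested genes called in both comparisons with control, or in none, were not computed. The counts of this paragraph are therefore a description alone and are not read as particular to the 33 genes.

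**Figure D1:**
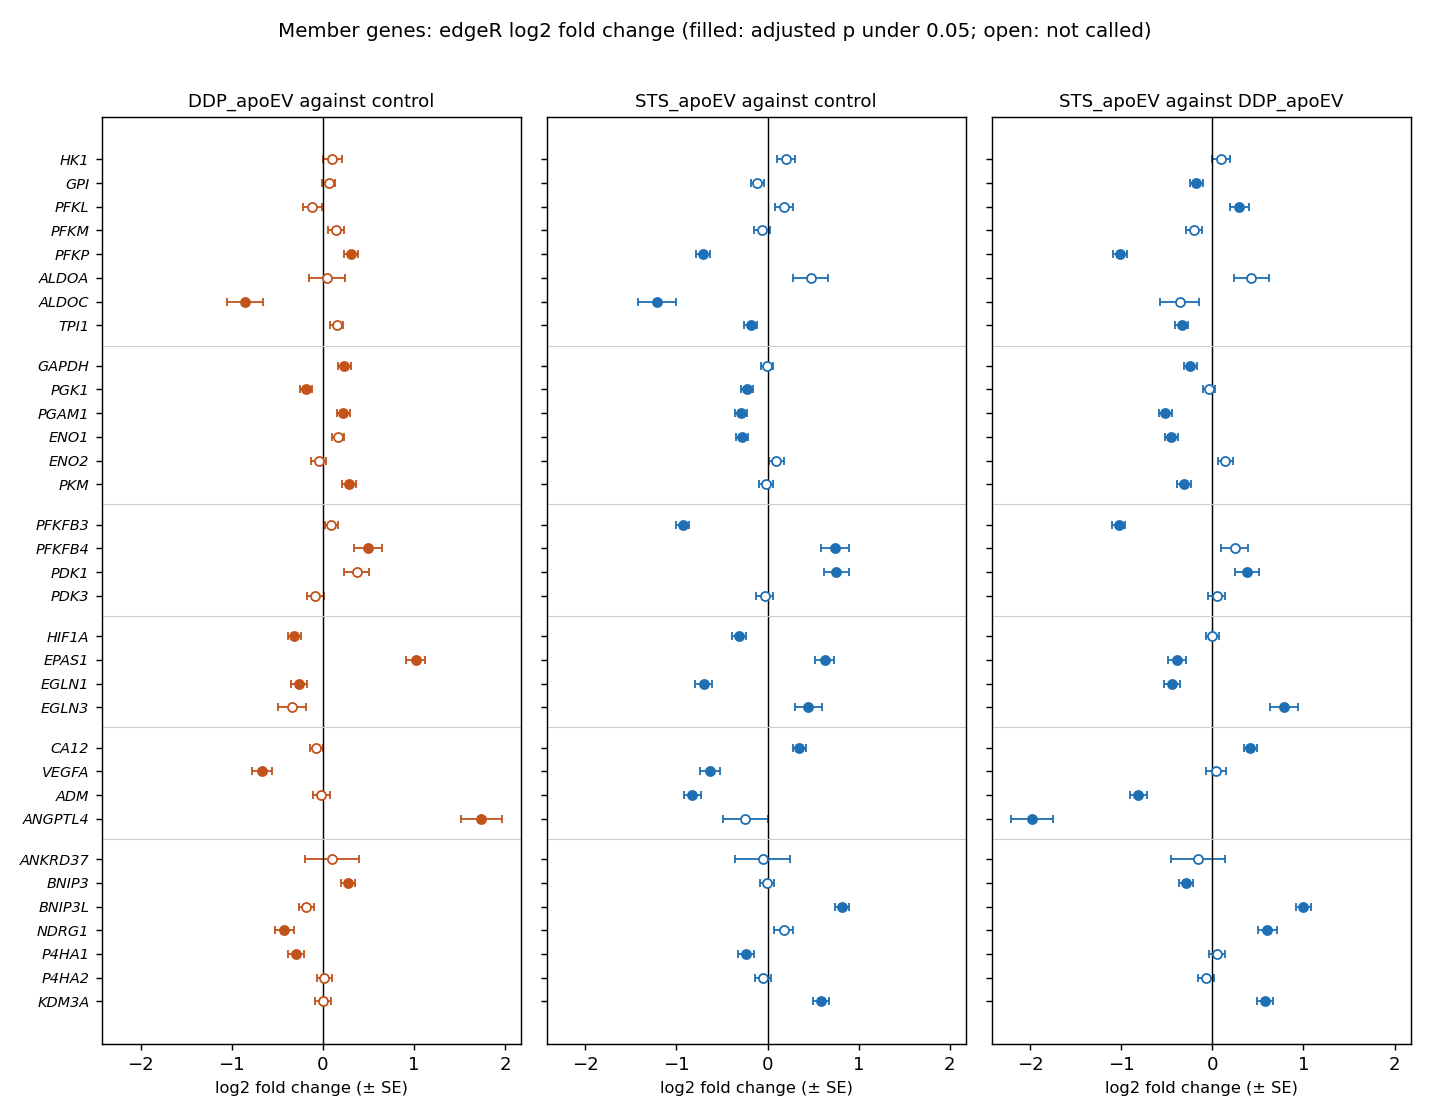
Log2 fold change with its SE (x axis) of the 33 tested genes (y axis, in 6 groups by role) for DDP_apoEV against control, STS_apoEV against control and STS_apoEV against DDP_apoEV. Filled points passed an adjusted p of 0.05, and in every panel they lie on both sides of 0, from −1.98 for ANGPTL4 between the vesicle types to 1.74 for the same gene with DDP_apoEV.

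The 2 HIF alpha subunits moved in opposite directions. HIF1A (ENSG00000100644, chr14:61695513-61748259, hg38), which encodes the alpha subunit found in most cells, stood at 445, 498 and 479 CPM in DDP_apoEV, at 477, 441 and 501 CPM in STS_apoEV and at 545, 603 and 618 CPM in control. Every vesicle-treated library was below every control library. HIF1A averaged 474 ± 27.2 CPM in DDP_apoEV, 473 ± 30.2 CPM in STS_apoEV and 589 ± 38.3 CPM in control (SD, n = 3 each), 1.24-fold lower with either vesicle (log2 fold change −0.31 ± 0.0729 SE in both). The adjusted p was 0.00245 with DDP_apoEV and 0.000942 with STS_apoEV. In bulk RNA, fewer cells with a transcript and less of it per cell cannot be told apart.

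EPAS1 (ENSG00000116016, chr2:46293667-46386697), which encodes the alpha subunit HIF-2α, stood at 162, 179 and 123 CPM in DDP_apoEV, at 125, 114 and 115 CPM in STS_apoEV and at 75.7, 81.3 and 72.3 CPM in control. Every vesicle-treated library was above every control library. EPAS1 rose 2.02-fold with DDP_apoEV (log2 fold change 1.02 ± 0.102, adjusted p = 2.66e-07) and 1.55-fold with STS_apoEV (0.63 ± 0.103, adjusted p = 5.77e-05). It was lower in STS_apoEV than in DDP_apoEV (−0.39 ± 0.1, adjusted p = 0.0037), where the third DDP_apoEV library lay below the highest STS_apoEV library. Per length, HIF1A remained the higher of the pair in every group. Its level was 91.6 FPKM (a level relative to gene length and depth) in DDP_apoEV, 90.0 in STS_apoEV and 113 in control, while that of EPAS1 was 21.1 FPKM in DDP_apoEV, 15.9 in STS_apoEV and 10.4 in control.

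The oxygen sensor EGLN1 (PHD2), the main prolyl hydroxylase acting on HIF-1α, stood at 54.0, 60.1 and 60.8 CPM in DDP_apoEV, at 48.2, 38.2 and 42.4 CPM in STS_apoEV and at 75.5, 68.7 and 65.2 CPM in control. No groups overlapped, and STS_apoEV was the lowest. The fall was 1.63-fold with STS_apoEV (−0.70 ± 0.091, adjusted p = 2.11e-07), and EGLN1 was 1.36-fold lower in STS_apoEV than in DDP_apoEV (adjusted p = 0.000205). The fall of 1.20-fold with DDP_apoEV (adjusted p = 0.0418) was past the threshold in 5 of 16 alternative settings. It was lost without any 1 of the DDP_apoEV replicates 1, 2 and 3 and the control replicates 1 and 2, at −0.20 to −0.29 with an adjusted p of 0.0534 to 0.216.

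EGLN3 (PHD3), a prolyl hydroxylase that is itself a HIF target, went the other way with STS_apoEV. It stood at 6.81, 7.74 and 7.69 CPM in DDP_apoEV, at 14.1, 13.4 and 10.8 CPM in STS_apoEV and at 9.50, 9.37 and 9.30 CPM in control. The 3 groups did not overlap, with STS_apoEV highest and DDP_apoEV lowest. EGLN3 was 1.72-fold higher in STS_apoEV than in DDP_apoEV (0.79 ± 0.151, adjusted p = 8.11e-05) and 1.36-fold higher than in control (0.45 ± 0.149, adjusted p = 0.0202). The second call was lost without STS_apoEV replicate 1 or 2 or any 1 of the 3 control replicates, at 0.36 to 0.44 with an adjusted p of 0.0587 to 0.118. It was also lost in limma on log2 FPKM values and without the filter, and held in 7 of 16 alternative settings. With DDP_apoEV the log2 fold change was −0.34 (adjusted p = 0.14).

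**Figure D2:**
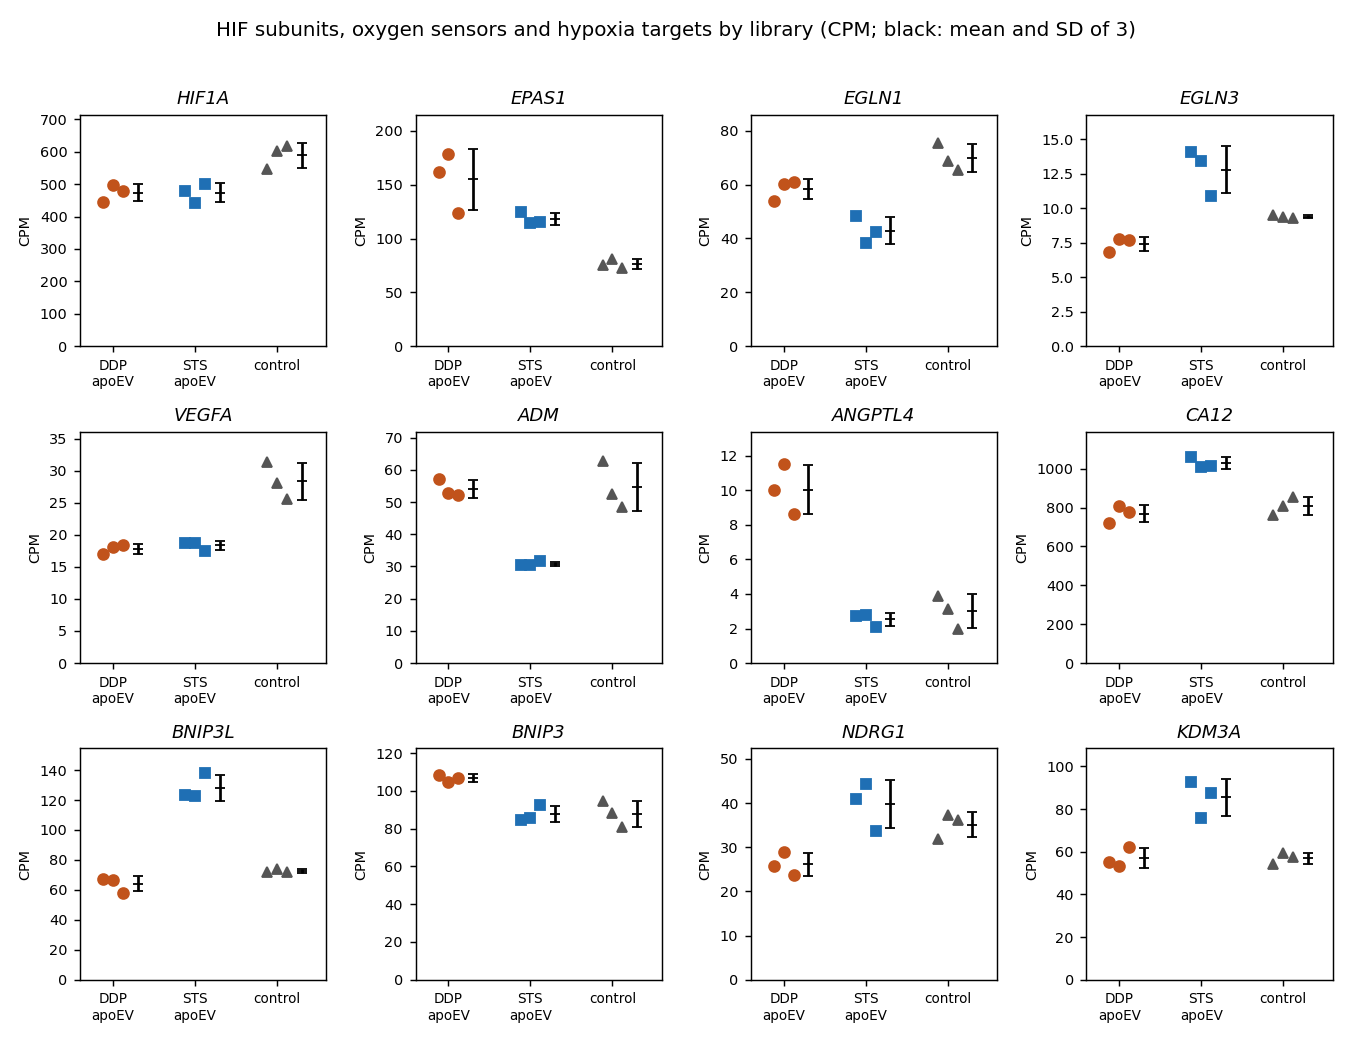
Normalised level (y axis, CPM from 0) of 12 HIF subunits, oxygen sensors and hypoxia targets in each of 9 libraries (x axis, by group: DDP_apoEV circles, STS_apoEV squares, control triangles), with the mean and SD of 3 libraries in black. HIF1A and VEGFA are lower with either vesicle, EPAS1 is higher with either, ANGPTL4 stands apart in DDP_apoEV at 8.64 to 11.5 CPM, and BNIP3L and KDM3A stand apart in STS_apoEV.

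Among the secreted, vessel and pH targets, ANGPTL4, VEGFA, ADM and CA12 each showed another pattern over the 3 groups. With DDP_apoEV 1 of the 4 tested rose and 1 fell, with STS_apoEV 1 rose and 2 fell, and their median log2 fold changes were −0.04 and −0.44. Of all tested genes 15.5% were called with DDP_apoEV and 32.8% with STS_apoEV. VEGFA (ENSG00000112715, chr6:43770184-43786487), which encodes the main growth factor of blood vessels, stood at 16.9, 18.1 and 18.4 CPM in DDP_apoEV, at 18.8, 18.7 and 17.5 CPM in STS_apoEV and at 31.4, 28.1 and 25.5 CPM in control. All 6 vesicle-treated libraries lay below the control libraries and overlapped with each other. VEGFA fell 1.59-fold with DDP_apoEV (−0.67 ± 0.109, adjusted p = 3.1e-05) and 1.55-fold with STS_apoEV (−0.63 ± 0.11, adjusted p = 2.99e-05).

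ANGPTL4 (ENSG00000167772, chr19:8363289-8374370), a secreted inhibitor of lipoprotein lipase that is a target of both HIF and the PPAR nuclear receptors, stood at 10.0, 11.5 and 8.64 CPM in DDP_apoEV, at 2.73, 2.77 and 2.11 CPM in STS_apoEV and at 3.90, 3.15 and 1.94 CPM in control. The DDP_apoEV libraries were all above the others, and the other groups overlapped. ANGPTL4 rose 3.34-fold with DDP_apoEV against control (1.74 ± 0.227, adjusted p = 7.13e-07), the largest fold change against control among the 33 tested genes. It was 3.95-fold lower in STS_apoEV than in DDP_apoEV (−1.98 ± 0.232, adjusted p = 2.13e-08). With STS_apoEV against control it did not pass (−0.24 ± 0.25, adjusted p = 0.499).

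ADM, which encodes the vasodilator peptide adrenomedullin, stood at 57.3, 52.7 and 52.2 CPM in DDP_apoEV, at 30.3, 30.4 and 31.6 CPM in STS_apoEV and at 62.8, 52.6 and 48.4 CPM in control. The STS_apoEV libraries lay close together and below all others. ADM was 1.78-fold lower in STS_apoEV than in control (−0.83 ± 0.0941, adjusted p = 1.76e-08) and 1.76-fold lower than in DDP_apoEV (adjusted p = 1.65e-08). CA12, a membrane carbonic anhydrase that hydrates carbon dioxide at the cell surface, averaged 769 ± 44.8 CPM in DDP_apoEV, 1028 ± 30.1 CPM in STS_apoEV and 808 ± 44.7 CPM in control. It was 1.27-fold higher in STS_apoEV than in control (adjusted p = 0.00018) and 1.34-fold higher than in DDP_apoEV (adjusted p = 1.04e-05).

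CA9, the carbonic anhydrase most often used as a marker of tumour hypoxia, was near the lower limit of detection in every group. It stood at 0.188, 0.122 and 0.381 CPM in DDP_apoEV, at 1.05, 0.607 and 0.0704 CPM in STS_apoEV and at 0.586, 0.342 and 0.278 CPM in control, from 54 counts over all 9 libraries. The groups overlapped. CA9 was filtered out of the main test, and without the filter it passed in no comparison (adjusted p = 0.314 to 0.735 in edgeR). Of its exonic bases 38.5% overlap ARHGEF39 on the other strand, and the labels do not say whether counting used strand.

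The intracellular targets gave 1 rise and 2 falls among 7 tested genes with DDP_apoEV, and 2 rises and 1 fall with STS_apoEV, with medians of 0.00 and −0.00 on the log2 scale. That is 42.9% with either vesicle, against 15.5% of all tested genes with DDP_apoEV and 32.8% with STS_apoEV. BNIP3L (NIX; ENSG00000104765, chr8:26383054-26505636), a mitochondrial receptor for the removal of mitochondria by autophagy, stood at 67.3, 66.7 and 58.3 CPM in DDP_apoEV, at 123, 123 and 138 CPM in STS_apoEV and at 71.6, 74.3 and 71.7 CPM in control. The STS_apoEV libraries were all well above the other 6. BNIP3L rose 1.76-fold with STS_apoEV against control (0.82 ± 0.0802, adjusted p = 8.08e-10) and was 2.00-fold higher than in DDP_apoEV (0.998 ± 0.0805, adjusted p = 8.1e-12). With DDP_apoEV against control it did not pass (−0.18, adjusted p = 0.143).

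BNIP3, the related mitochondrial receptor, did not follow it. Its mean was 107 ± 1.93 CPM in DDP_apoEV, 87.7 ± 4.36 CPM in STS_apoEV and 87.9 ± 6.97 CPM in control. It was 1.21-fold higher with DDP_apoEV than in control (0.28, adjusted p = 0.0115), a call lost without DDP_apoEV replicate 1 (0.27, adjusted p = 0.0507) and without control replicate 3 (0.22, adjusted p = 0.114). BNIP3 kept this call in 13 of 16 alternative settings. It was 1.22-fold lower in STS_apoEV than in DDP_apoEV (adjusted p = 0.00381). BNIP3L and BNIP3 thus differed between the vesicle types in opposite directions.

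KDM3A, a histone H3 lysine demethylase induced by HIF, stood at 55.5, 53.6 and 62.3 CPM in DDP_apoEV, at 92.9, 75.8 and 87.7 CPM in STS_apoEV and at 54.3, 59.3 and 57.7 CPM in control. The STS_apoEV libraries lay above all others, which overlapped. It was 1.5-fold higher in STS_apoEV than in control (0.58 ± 0.0867, adjusted p = 2.39e-06) and than in DDP_apoEV (0.58 ± 0.0864, adjusted p = 1.68e-06). NDRG1, a cytoplasmic protein known as a hypoxia and differentiation marker, stood at 25.7, 28.9 and 23.8 CPM in DDP_apoEV, at 41.0, 44.4 and 33.8 CPM in STS_apoEV and at 31.8, 37.2 and 36.2 CPM in control. The DDP_apoEV libraries were the lowest, and the other groups overlapped. NDRG1 fell 1.34-fold with DDP_apoEV (−0.42 ± 0.106, adjusted p = 0.00476) and was 1.52-fold higher in STS_apoEV than in DDP_apoEV (0.60 ± 0.105, adjusted p = 2.15e-05). The fall with DDP_apoEV did not pass in limma on log2 FPKM values (adjusted p = 0.0623 to 0.218 in 3 settings). With STS_apoEV against control NDRG1 did not pass (0.18, adjusted p = 0.193), except without STS_apoEV replicate 3 (0.28, adjusted p = 0.0451).

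P4HA1, a collagen prolyl 4-hydroxylase subunit, averaged 49.4 ± 3.19 CPM in DDP_apoEV, 51.2 ± 4.01 CPM in STS_apoEV and 60.5 ± 3.56 CPM in control. It fell with DDP_apoEV (−0.29, adjusted p = 0.0173) and with STS_apoEV (−0.24, adjusted p = 0.0321). The first call was lost without DDP_apoEV replicate 1 or 3 or control replicate 3 (adjusted p = 0.0544 to 0.11), and the second without STS_apoEV replicate 1 or control replicate 3 (0.117 to 0.15). P4HA1 kept each call in 12 of 16 alternative settings. Its paralog P4HA2 averaged 40.2 CPM in DDP_apoEV, 38.3 in STS_apoEV and 39.7 in control. ANKRD37, which encodes an ankyrin-repeat protein, averaged 2.88 CPM in DDP_apoEV, 2.58 in STS_apoEV and 2.68 in control. Neither passed in any comparison. Of the exonic bases of ANKRD37, 35.2% overlap UFSP2.

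Along glycolysis itself the enzymes from TPI1 downwards, with the exception of ENO2, were far more abundant per length than those above. In control libraries GAPDH stood at 1620 FPKM, ENO1 at 677, TPI1 at 356, PGK1 at 210, PKM at 192 and PGAM1 at 181, while GPI stood at 30.3, PFKP at 29.02 and HK1 at 5.16 FPKM. The order of these 9 levels in DDP_apoEV was GAPDH (1919 FPKM), ENO1 (766), TPI1 (397), PKM (237), PGAM1 (213), PGK1 (185), PFKP (36.1), GPI (31.8) and HK1 (5.58). In STS_apoEV, PKM (188 FPKM) and PGK1 (178) lay within their spread of each other (SD 10.48 and 8.70), and PFKP had dropped to 17.6 FPKM below GPI at 27.7. Hexokinase was carried by HK1 and by HKDC1, a hexokinase domain protein outside the 35 genes, at 5.58 and 16.3 FPKM in DDP_apoEV, 5.88 and 12.8 in STS_apoEV and 5.16 and 15.7 in control. HK2, the isoenzyme most often raised in tumours, had 64 counts over all 9 libraries and stood at 0.50, 0.183 and 0.318 CPM in DDP_apoEV, at 0.140, 0.0675 and 0.493 CPM in STS_apoEV and at 0.586, 0.684 and 1.32 CPM in control. All control libraries were above all vesicle-treated ones. HK2 was filtered out of the main test. With STS_apoEV against control it did not pass without the filter (−1.87, adjusted p = 0.0571). In some fits with 1 library left out it came through the default filter. There it passed the test without STS_apoEV replicate 3 (−2.96, adjusted p = 0.0117) and without control replicate 1 (−2.08, adjusted p = 0.0375). It did not pass without STS_apoEV replicate 1 (−1.62, adjusted p = 0.125) or 2 (−1.42, adjusted p = 0.159). HK2 was highest in control, so coming through the filter was not independent of this difference.

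**Figure D3:**
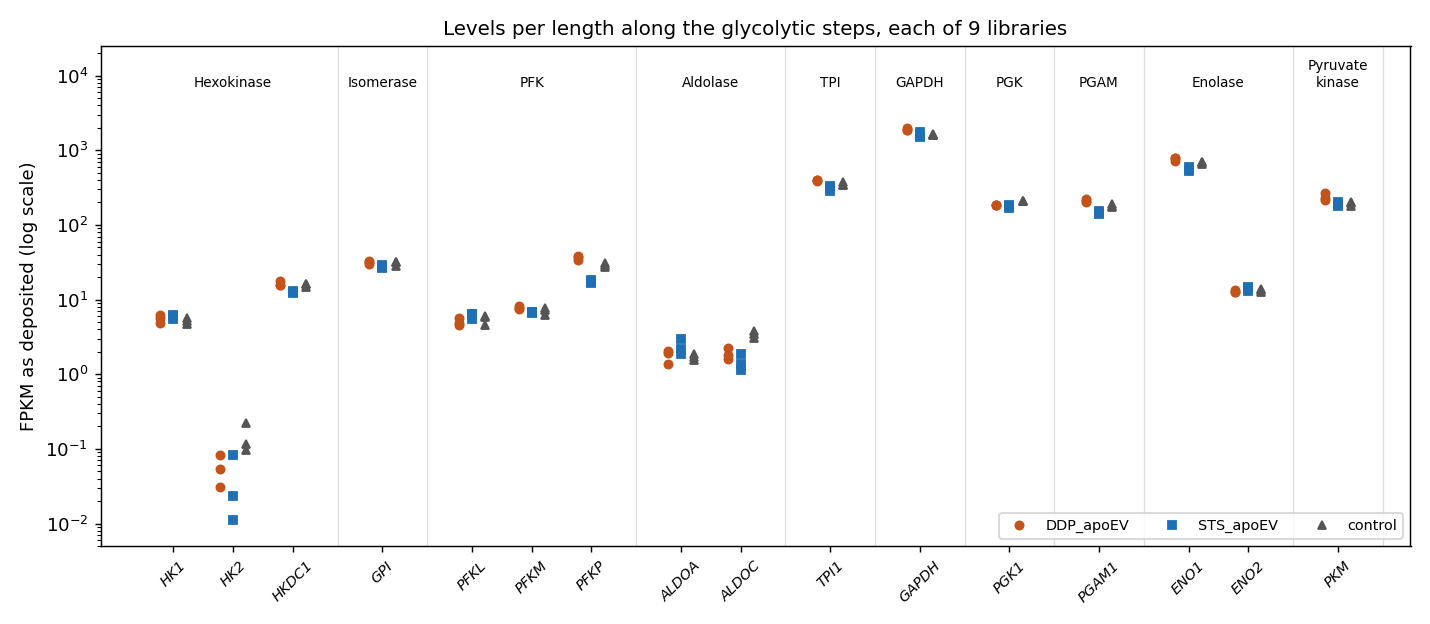
Level per length (y axis, FPKM as deposited, log scale) of glycolytic enzymes in the order of the pathway (x axis), each point 1 of 9 libraries, with DDP_apoEV as circles, STS_apoEV as squares and control as triangles. GAPDH and ENO1 are the highest in all groups, HK2 the lowest, and PFKP is the enzyme whose 3 groups lie furthest apart among those above 10 FPKM.

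ALDOA, the aldolase that most tissues use, was listed at 6.82 ± 1.36 CPM in DDP_apoEV, 9.18 ± 2.31 CPM in STS_apoEV and 6.62 ± 0.607 CPM in control, and per length at 1.77 FPKM in DDP_apoEV, 2.35 in STS_apoEV and 1.71 in control. Of its exonic bases in GENCODE v29, 42.3% are shared with the gene ENSG00000285043 on the same strand. The sources used here do not say how reads in shared bases were assigned, so the level of ALDOA is uncertain. It passed the test in no comparison (0.47, adjusted p = 0.0591 with STS_apoEV). With STS_apoEV it passed under upper-quartile scaling (0.0453), in the fit of the compared groups alone (0.0445) and without STS_apoEV replicate 3 (0.0231), and between the types it passed without STS_apoEV replicate 3 (0.0288).

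The 15 glycolytic enzyme genes summed to 14049, 14738 and 13585 CPM in DDP_apoEV, to 10830, 12169 and 11105 CPM in STS_apoEV and to 12835, 12056 and 12607 CPM in control. The DDP_apoEV sums were all above the control sums, while those of STS_apoEV overlapped them. GAPDH and ENO1 make up most of each sum. The enzymes called with DDP_apoEV were higher with 2 exceptions: PFKP, GAPDH, PGAM1 and PKM rose, and ALDOC and PGK1 fell. With STS_apoEV none of the 14 tested rose, and PFKP, ALDOC, TPI1, PGK1, PGAM1 and ENO1 fell. Of all tested genes 15.9% rose and 16.8% fell with STS_apoEV, and 7.16% rose and 8.32% fell with DDP_apoEV.

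In upper glycolysis 8 genes were tested. With DDP_apoEV 1 rose and 1 fell, with a median log2 fold change of 0.08, and with STS_apoEV 3 fell and none rose, with a median of −0.09. The called shares were 25% with DDP_apoEV and 37.5% with STS_apoEV, against 15.5% and 32.8% of all tested genes. PFKP (ENSG00000067057, chr10:3066333-3137718), the platelet-type phosphofructokinase, which commits glucose to glycolysis, stood at 294, 287 and 260 CPM in DDP_apoEV, at 138, 146 and 132 CPM in STS_apoEV and at 243, 224 and 212 CPM in control. No library of any group reached the range of another, and control lay between the vesicle types. PFKP rose 1.24-fold with DDP_apoEV (0.31 ± 0.0741, adjusted p = 0.00322) and fell 1.63-fold with STS_apoEV (−0.71 ± 0.0753, adjusted p = 4.6e-09). It was 2.02-fold lower in STS_apoEV than in DDP_apoEV (−1.02 ± 0.0753, adjusted p = 1.17e-12).

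The other isoforms of phosphofructokinase did not share this pattern. PFKL averaged 45.4 ± 4.63 CPM in DDP_apoEV, 55.7 ± 5.07 CPM in STS_apoEV and 49.1 ± 7.64 CPM in control. It was 1.23-fold higher in STS_apoEV than in DDP_apoEV, with overlapping libraries (adjusted p = 0.0252), and this call was lost without DDP_apoEV replicate 1 or 3 or STS_apoEV replicate 1 or 2, at 0.23 to 0.27 with an adjusted p of 0.0817 to 0.12. Limma on log2 FPKM values also lost the call, which held in 9 of 16 alternative settings. PFKM averaged 57.1 CPM in DDP_apoEV, 49.6 in STS_apoEV and 51.7 in control and passed in no comparison. Between the types (−0.20, adjusted p = 0.0601) it passed with median-of-ratios scaling (0.0438) and in the fit of these groups alone (0.0464).

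ALDOC (ENSG00000109107, chr17:28573115-28576948), the aldolase best known from brain, stood at 4.75, 5.97 and 4.26 CPM in DDP_apoEV, at 4.98, 3.71 and 3.03 CPM in STS_apoEV and at 9.04, 8.07 and 9.99 CPM in control. All vesicle-treated libraries were below all control libraries. ALDOC fell 1.81-fold with DDP_apoEV (−0.85 ± 0.202, adjusted p = 0.00286) and 2.31-fold with STS_apoEV (−1.21 ± 0.209, adjusted p = 2.45e-05). Of its exonic bases 10.1% overlap a gene on the other strand.

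TPI1, which interconverts the triose phosphates, averaged 1077 ± 30.0 CPM in DDP_apoEV, 852 ± 61.0 CPM in STS_apoEV and 969 ± 39.8 CPM in control. It was lower in STS_apoEV than in DDP_apoEV (−0.34, adjusted p = 0.000199) and than in control (−0.19, adjusted p = 0.0378). The second call was lost without STS_apoEV replicate 1 or 3 or control replicate 1, at −0.15 to −0.19 with an adjusted p of 0.061 to 0.14. Some changes of scaling, filter or fit also lost it, and it held in 8 of 16 alternative settings. GPI, the isomerase between glucose and fructose phosphate, averaged 341 ± 16.6 CPM in DDP_apoEV, 302 ± 12.5 CPM in STS_apoEV and 326 ± 23.2 CPM in control. Its difference between the vesicle types (−0.18, adjusted p = 0.0497) was lost without DDP_apoEV replicate 1 or 2 or STS_apoEV replicate 1 or 3, at −0.15 to −0.19 with an adjusted p of 0.0752 to 0.139. That difference held in 7 of 16 alternative settings. HK1, the housekeeping hexokinase, passed in no comparison at 35.3 ± 4.29 CPM in DDP_apoEV, 37.8 ± 2.49 in STS_apoEV and 32.8 ± 3.07 in control.

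In lower glycolysis 6 genes were tested, of which 3 rose and 1 fell with DDP_apoEV (median 0.20) and 3 fell and none rose with STS_apoEV (median −0.12). Between the vesicle types 4 were lower in STS_apoEV and none was higher (median −0.27). The called shares were 66.7% with DDP_apoEV, 50% with STS_apoEV and 66.7% between the types. Over all tested genes they were 15.5%, 32.8% and 39.7%. GAPDH, the glyceraldehyde phosphate dehydrogenase often used as a reference transcript, stood at 4488, 4799 and 4567 CPM in DDP_apoEV, at 3649, 4281 and 3796 CPM in STS_apoEV and at 3977, 3889 and 3896 CPM in control. The DDP_apoEV libraries were all above the others, and the STS_apoEV libraries spread on both sides of control. GAPDH was 1.18-fold higher with DDP_apoEV than in control (0.24 ± 0.0694, adjusted p = 0.0168) and 1.18-fold lower in STS_apoEV than in DDP_apoEV (adjusted p = 0.00573). The first call was lost without DDP_apoEV replicate 2 or control replicate 2 or 3, at 0.21 to 0.23 with an adjusted p of 0.0715 to 0.0868. It held in 12 of 16 alternative settings. The 65 rows of GAPDH pseudogenes together held 0.365% as many counts as GAPDH. Of the exonic bases of GAPDH, 14.2% overlap the gene AC006064.4 on the other strand, and the labels do not say whether counting used strand.

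PGAM1, phosphoglycerate mutase, stood at 538, 569 and 520 CPM in DDP_apoEV, at 365, 398 and 374 CPM in STS_apoEV and at 485, 456 and 451 CPM in control. As for PFKP, no groups overlapped and control lay between the vesicle types. It fell 1.22-fold with STS_apoEV (−0.29 ± 0.0694, adjusted p = 0.00126) and was 1.43-fold lower in STS_apoEV than in DDP_apoEV (−0.52 ± 0.0694, adjusted p = 2.91e-07). The rise with DDP_apoEV (0.23 ± 0.0692, adjusted p = 0.0224) was lost without DDP_apoEV replicate 1 or 2 or control replicate 2 or 3, at 0.19 to 0.23 with an adjusted p of 0.0627 to 0.12. This rise held in 10 of 16 alternative settings.

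ENO1, the main enolase outside nerve and muscle, averaged 4012 ± 166 CPM in DDP_apoEV, 2936 ± 192 CPM in STS_apoEV and 3569 ± 160 CPM in control. It fell with STS_apoEV (−0.28, adjusted p = 0.00172) and was lower there than in DDP_apoEV (−0.45, adjusted p = 3e-06), while the difference with DDP_apoEV did not pass (0.17, adjusted p = 0.0995; 0.0425 in DESeq2). ENO2, the neuronal enolase, averaged 55.8 CPM in DDP_apoEV, 61.6 in STS_apoEV and 57.6 in control and passed in no comparison. PKM, the pyruvate kinase gene of most tissues, averaged 2037 ± 214 CPM in DDP_apoEV, 1647 ± 95.0 CPM in STS_apoEV and 1665 ± 121 CPM in control. It rose with DDP_apoEV (0.29, adjusted p = 0.00714) and was lower in STS_apoEV than in DDP_apoEV (−0.31, adjusted p = 0.00156). The rise was lost without DDP_apoEV replicate 2 (0.21, adjusted p = 0.0976) and without control replicate 2 (0.23, adjusted p = 0.0863). It was also lost in limma on log2 FPKM values and held in 11 of 16 alternative settings.

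PGK1, phosphoglycerate kinase, whose promoter window above holds a pair of cores, averaged 1011 ± 3.63 CPM in DDP_apoEV, 987 ± 43.3 CPM in STS_apoEV and 1152 ± 5.50 CPM in control. It fell with STS_apoEV (−0.22, adjusted p = 0.00891). The fall with DDP_apoEV was −0.19 with an adjusted p of 0.0492. That call was lost without any 1 of the 6 libraries, at −0.19 each time with an adjusted p of 0.122 to 0.133. It held in 4 of 16 alternative settings.

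**Figure D4:**
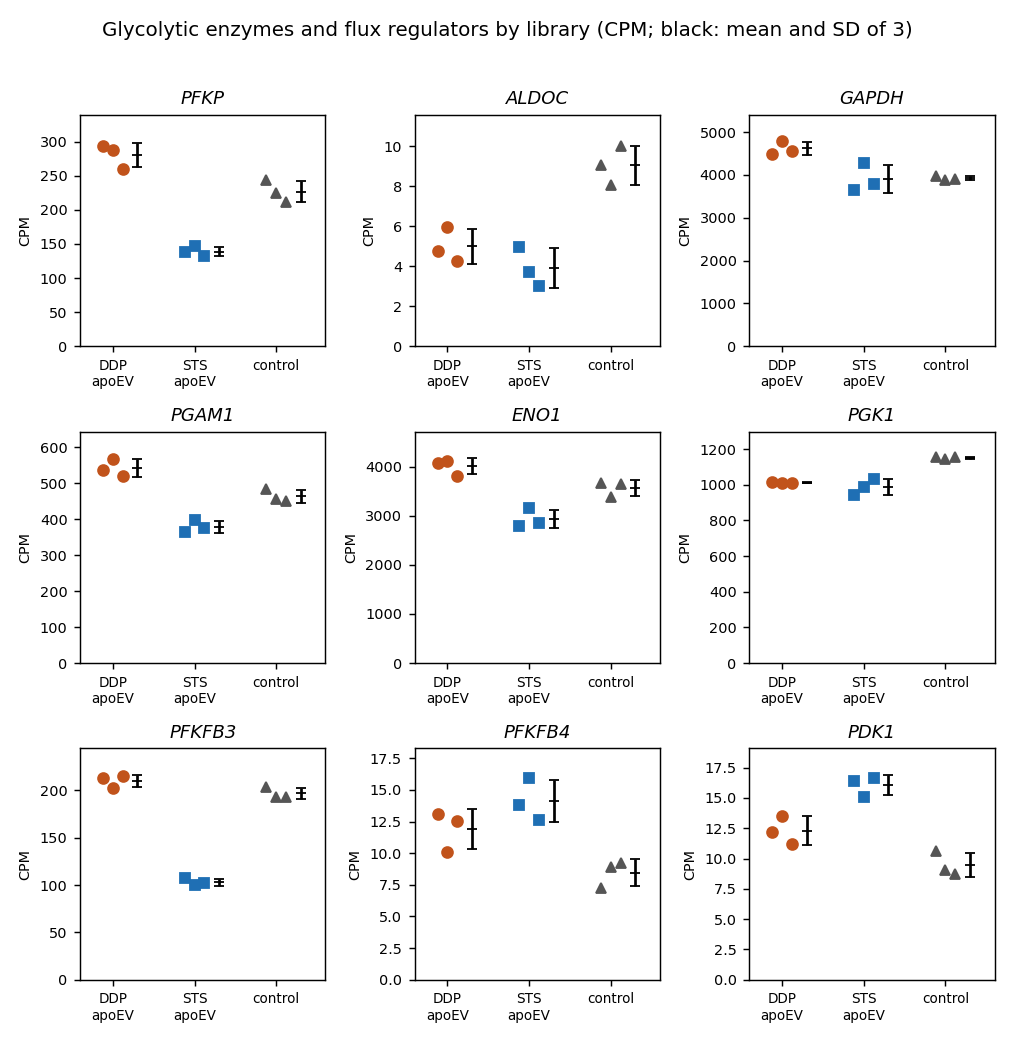
Normalised level (y axis, CPM from 0) of 9 glycolytic enzymes and flux regulators in each of 9 libraries (x axis, by group: DDP_apoEV circles, STS_apoEV squares, control triangles), with the mean and SD of 3 libraries in black. PFKP and PGAM1 lie highest in DDP_apoEV, lowest in STS_apoEV and between them in control, PFKFB3 is low in STS_apoEV at 101 to 107 CPM, and ALDOC and PGK1 are lower with either vesicle.

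The flux regulators split. PFKFB3 (ENSG00000170525, chr10:6144934-6254644) makes fructose 2,6-bisphosphate, the strongest activator of phosphofructokinase. It stood at 213, 203 and 215 CPM in DDP_apoEV, at 107, 101 and 102 CPM in STS_apoEV and at 204, 193 and 194 CPM in control. The STS_apoEV libraries were all far below the others, which overlapped. PFKFB3 fell 1.91-fold with STS_apoEV (−0.93 ± 0.0717, adjusted p = 3.32e-12) and was 2.04-fold lower than in DDP_apoEV (−1.03 ± 0.0717, adjusted p = 2.83e-13). With DDP_apoEV against control it did not pass (0.09, adjusted p = 0.424).

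PFKFB4, the paralog with the same pair of activities, stood at 13.1, 10.1 and 12.6 CPM in DDP_apoEV, at 13.8, 15.9 and 12.6 CPM in STS_apoEV and at 7.22, 8.89 and 9.23 CPM in control. All vesicle-treated libraries were above all control libraries. It rose 1.67-fold with STS_apoEV (0.74 ± 0.15, adjusted p = 0.000212). The rise of 1.41-fold with DDP_apoEV (0.50 ± 0.151, adjusted p = 0.0209) was lost without DDP_apoEV replicate 1 or 3 or control replicate 1, at 0.40 to 0.46 with an adjusted p of 0.0708 to 0.128. Limma on log2 FPKM values also lost this rise, which held in 10 of 16 alternative settings. Per length PFKFB3 exceeded PFKFB4 in every group, at 34.2 against 1.94 FPKM in DDP_apoEV, 16.5 against 2.26 FPKM in STS_apoEV and 31.9 against 1.37 FPKM in control.

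PDK1, a kinase that switches off pyruvate dehydrogenase, the mitochondrial enzyme complex that turns pyruvate into acetyl-CoA, stood at 12.2, 13.5 and 11.2 CPM in DDP_apoEV, at 16.4, 15.1 and 16.6 CPM in STS_apoEV and at 10.6, 9.10 and 8.75 CPM in control. The groups did not overlap, with STS_apoEV highest. It rose 1.69-fold with STS_apoEV (0.76 ± 0.137, adjusted p = 4.68e-05), and the difference with DDP_apoEV did not pass (0.37, adjusted p = 0.0624; 0.0473 without control replicate 1). It was higher in STS_apoEV than in DDP_apoEV (0.38 ± 0.133, adjusted p = 0.0217), a call lost without DDP_apoEV replicate 1 or 3 or STS_apoEV replicate 1 or 3, at 0.31 to 0.37 with an adjusted p of 0.0597 to 0.103. PDK1 kept this call in 8 of 14 alternative settings. PDK3, another kinase of the family, averaged 41.2 CPM in DDP_apoEV, 42.6 in STS_apoEV and 43.6 in control and passed in no comparison.

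Further genes of the same and neighbouring pathways were read from lists outside the 35. Of 30 other glycolysis genes 19 were tested, with 4 higher and 6 lower with DDP_apoEV (median −0.11), 5 higher and 7 lower with STS_apoEV (median −0.03) and 6 higher and 5 lower in STS_apoEV than in DDP_apoEV (median 0.11). The called shares were 52.6%, 63.2% and 57.9% in that order, against 15.5%, 32.8% and 39.7% of all tested genes. PDK4, the pyruvate dehydrogenase kinase of fasting, averaged 74.7 ± 5.21 CPM in DDP_apoEV, 246 ± 23.6 CPM in STS_apoEV and 50.2 ± 10.7 CPM in control. It rose 4.90-fold with STS_apoEV (2.29, adjusted p = 1.9e-09) and 1.49-fold with DDP_apoEV (0.57, adjusted p = 0.00521). SLC16A3, the lactate exporter MCT4, rose 2.01-fold with STS_apoEV (1.004, adjusted p = 3.46e-09), and BPGM, which makes 2,3-bisphosphoglycerate, rose 1.49-fold (adjusted p = 8.86e-06). The glucose transporter SLC2A3 averaged 13.9 ± 1.09 CPM in DDP_apoEV, 20.9 ± 1.94 CPM in STS_apoEV and 27.9 ± 1.82 CPM in control. It fell 2.00-fold with DDP_apoEV (−1.003, adjusted p = 5.36e-08).

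PFKFB2, another maker of fructose 2,6-bisphosphate, fell with DDP_apoEV (−0.59, adjusted p = 6.41e-05) and with STS_apoEV (−0.48, adjusted p = 0.000314). MPC2, a subunit of the mitochondrial pyruvate carrier, fell with DDP_apoEV (−0.40, adjusted p = 0.000623), and PGM1, which joins glycogen to glycolysis, rose (0.41, adjusted p = 0.00496). MPC2 averaged 68.7 CPM in DDP_apoEV, 70.4 in STS_apoEV and 90.6 in control, with every vesicle-treated library below every control library. For PGM1 the means were 43.9, 32.5 and 33.1 CPM in that order. TXNIP, which lowers glucose uptake, was at 0.536 ± 0.487 CPM in DDP_apoEV, 4.13 ± 0.695 CPM in STS_apoEV and 0.762 ± 0.425 CPM in control, and it was higher in STS_apoEV than in DDP_apoEV (2.92, adjusted p = 9.99e-05) and than in control (2.42, adjusted p = 0.000589). It came through the expression filter on its STS_apoEV libraries, so its being tested was not independent of these differences. Both fold changes rest on low levels in the other groups.

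Of 13 other HIF pathway components 12 were tested. With DDP_apoEV 1 was higher and none lower (median 0.12). With STS_apoEV 4 were higher and 1 lower (median 0.23), and between the vesicle types 4 were higher and 1 lower in STS_apoEV (median −0.02). The called shares, 8.33%, 41.7% and 41.7% in that order, compare with 15.5%, 32.8% and 39.7% of all tested genes. ARNT2, an alternative partner of the alpha subunits, rose with DDP_apoEV (0.56, adjusted p = 0.00103). With STS_apoEV the subunit ELOB of the VHL complex (0.32, adjusted p = 0.00274), the HIF inhibitor CITED2 (0.43, adjusted p = 0.0265), the coactivator EP300 (0.32, adjusted p = 0.0318) and VHL itself (0.27, adjusted p = 0.0371) rose. The cullin CUL2 of the VHL complex was lower in STS_apoEV than in DDP_apoEV (−0.41, adjusted p = 0.000159).

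All 33 other hypoxia targets were tested, with 6 higher and 7 lower with DDP_apoEV (median −0.09), 8 higher and 8 lower with STS_apoEV (median 0.09) and 10 higher and 8 lower in STS_apoEV than in DDP_apoEV (median 0.15). The called shares were 39.4%, 48.5% and 54.5% in that order, against 15.5%, 32.8% and 39.7% of all tested genes. The secreted glycoprotein gene STC1 averaged 17.0 ± 0.712 CPM in DDP_apoEV, 36.2 ± 1.48 CPM in STS_apoEV and 6.19 ± 1.13 CPM in control. It rose 2.74-fold with DDP_apoEV (adjusted p = 4.87e-10) and 5.85-fold with STS_apoEV (adjusted p = 1.46e-16). STC2 rose (0.999, adjusted p = 5.37e-07) and WSB1 fell (−0.60, adjusted p = 4.99e-07) with DDP_apoEV. The chemokine receptor gene CXCR4 fell (−2.62, adjusted p = 1.12e-09) and ANKZF1 rose (0.84, adjusted p = 2.62e-08) with STS_apoEV. STC2 averaged 22.7 CPM in DDP_apoEV, 24.4 in STS_apoEV and 11.4 in control, thus above control with either vesicle. CXCR4 averaged 4.47, 1.76 and 10.8 CPM in that order, thus below control with either. The means were 66.8, 110 and 102 CPM for WSB1 and 18.8, 38.6 and 21.5 CPM for ANKZF1. The largest rise of this list with DDP_apoEV was in BHLHE41, a transcriptional repressor. The largest fall was in IGFBP3, a binding protein of insulin-like growth factors. These genes were named after their values were seen. BHLHE41 averaged 1.80 ± 0.676 CPM in DDP_apoEV, 1.20 ± 0.239 CPM in STS_apoEV and 0.224 ± 0.137 CPM in control (2.96 with DDP_apoEV, adjusted p = 9.12e-05). Its counts in control were 5, 1 and 4, and it came through the expression filter on its vesicle-treated libraries. The fold change thus rests on a base near 0. IGFBP3 averaged 116 ± 25.5 CPM in DDP_apoEV, 406 ± 7.95 CPM in STS_apoEV and 293 ± 9.93 CPM in control. It fell 2.52-fold with DDP_apoEV (−1.34, adjusted p = 8.1e-07) and rose 1.39-fold with STS_apoEV (0.47, adjusted p = 0.00372).

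The counts in the next, small lists stand beside 15.5% of all tested genes called with DDP_apoEV and 32.8% with STS_apoEV. Among 3 tested of 7 gluconeogenesis genes, none was called with DDP_apoEV (median −0.06). With STS_apoEV the pyruvate carboxylase gene PC fell (−0.98, adjusted p = 1.94e-06) and the glucose phosphatase gene G6PC3 rose (0.46, adjusted p = 8.17e-05), with a median of −0.39. Of the 7 pentose phosphate genes, TALDO1 (transaldolase) fell with DDP_apoEV (−0.26, adjusted p = 0.00854; median 0.02). With STS_apoEV the pentose isomerase genes RPIA (−0.56, adjusted p = 0.000108) and RPE (−0.40, adjusted p = 0.000184) fell and PGLS (0.36, adjusted p = 0.00224) rose, with a median of −0.12. Of 13 PPAR targets, listed because ANGPTL4 and PDK4 belong among such genes, 9 were tested, and PDK4 counts here as well as among the glycolysis genes. With DDP_apoEV 2 rose and none fell (median 0.13), PDK4 and the lipid droplet gene PLIN2 (0.26, adjusted p = 0.0231). With STS_apoEV 5 rose and none fell (median 0.28), among them PDK4, PLIN2 (0.36, adjusted p = 0.000564) and the fatty acid oxidation enzyme gene ACADVL (0.38, adjusted p = 9.9e-05).

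**Figure D5:**
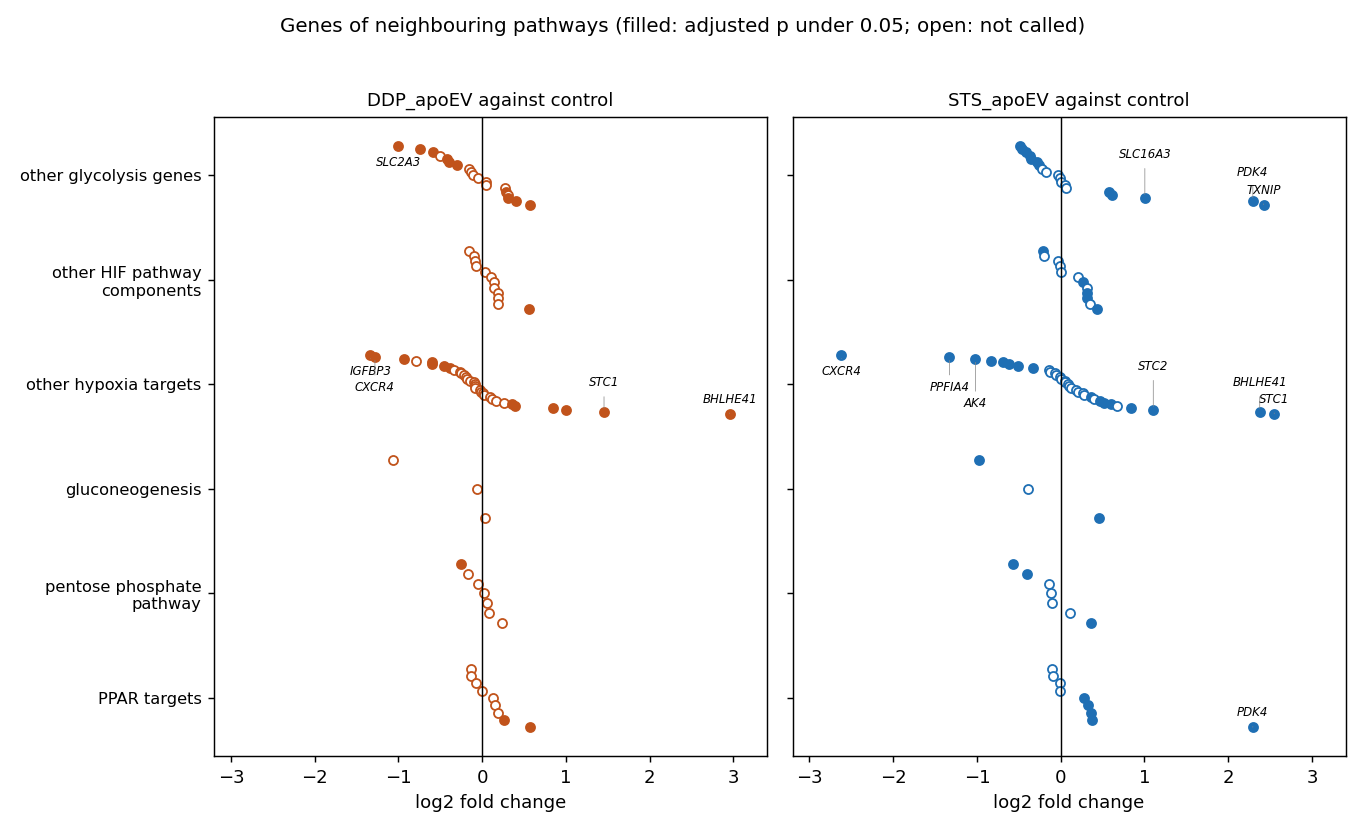
Log2 fold change (x axis) of every tested gene in 6 lists of neighbouring pathways (y axis), for DDP_apoEV against control and STS_apoEV against control, with filled points for an adjusted p under 0.05 and names at the largest changes. PDK4, TXNIP, BHLHE41 and STC1 lie far to the right with STS_apoEV at 2.29, 2.42, 2.38 and 2.55, CXCR4 far to the left at −2.62, and the other glycolysis genes and other hypoxia targets hold called genes on both sides of 0 in both panels. TXNIP (0.762 CPM) and BHLHE41 (0.224 CPM) were low in control.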

How the data were processed

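Per the labels' protocols, TRIzol RNA went into NEBNext Ultra libraries, and strand is not mentioned. The submitters' processing notes name, without roles, the build hg38 and the tools featureCounts 1.5.0-p3 (Subread), StringTie 1.3.3b, limma and HISAT2 2.0.5. The authors deposited raw counts of reads for each gene, in whole numbers, and FPKM values for the same 62257 rows. The deposited FPKM equalled the count over length and library total times a factor of 0.944 to 1.01 per library, of unstated origin. The 705 rows without an Ensembl ID held 0.313% to 0.357% of the counts and were kept.

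Counts were tested with edgeR 4.0.16 (R 4.3.3): quasi-likelihood with robust settings, TMM scaling, the default expression filter, all 9 libraries in 1 fit, no covariates. SE is the log2 fold change's size over the square root of F. CPM of genes use TMM-scaled library sizes, and summed marker CPM use unscaled totals. Group values are mean ± SD of 3 libraries. Libraries of a group differed beyond counting noise (chi-square per degree of freedom 5.11 to 7.67), so none was counted as a duplicate. The biological coefficient of variation was 0.0992. Exon overlaps were computed in GENCODE v29. The release behind the counts may be another. The scripts were tested on simulated data.

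The genes, lists and tests were chosen with earlier results of these data known. Values of every library are given for genes called with a log2 fold change of at least 0.5 in size and for HIF1A, EPAS1 and GAPDH, and also for HK2 and CA9. Of other lists, up to 4 called genes of smallest p per comparison could be named, and not every comparison is given for each. Some genes this rule took are not reported here. HKDC1 and a few values outside this rule were added after they were seen. Alternatives were a replicate block, DESeq2 1.42.0, no filter, 1 CPM in 3 libraries as the filter, upper-quartile or median-of-ratios scaling, fits with 2 groups only, leaving out each library, and limma 3.58.1 on log2 FPKM with a pseudocount of 1 or 0.1, either for genes of mean FPKM 1 or more or unfiltered (pseudocount 1).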

Additional observations from a re-analysis of the deposited data

How the results depend on the processing

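Of the calls, 3 of 15 with DDP_apoEV, 16 of 19 with STS_apoEV and 15 of 20 between the vesicle types held in every setting in which their gene was tested, and the cause of the lost calls was not tested. Leaving out 1 library gave 9 to 13 called genes of the 33 or 34 then tested with DDP_apoEV, 16 to 21 with STS_apoEV and 17 to 19 between the types. The 21, without STS_apoEV replicate 3, held 18 of the main calls and ALDOA, NDRG1 and HK2. Limma on unfiltered log2(FPKM + 1) called 3 of all 35 with DDP_apoEV, and 787, 3312 and 4352 of all genes with DDP_apoEV, with STS_apoEV and between the types. There the DDP_apoEV calls of PFKP (adjusted p = 0.0847), HIF1A (0.0978) and ALDOC (0.0653) and the differences between types of EPAS1 (0.104) and PKM (0.0539) were lost. With a mean FPKM of at least 1, limma called 1617 of all genes with DDP_apoEV at a pseudocount of 1 and 1638 at 0.1. Upper-quartile scaling moved the split of higher against lower calls to 2977 and 2596 with STS_apoEV, from 2698 and 2854.

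Signs turned only for differences that were not called in the main test, up to −0.157 for ANKRD37 between the types. ADM with DDP_apoEV was 0.000174 in limma on log2(FPKM + 0.1). Under upper-quartile scaling BNIP3, GAPDH and PKM with STS_apoEV were 0.023, 0.023 and 0.011, HIF1A between the types was 0.0298 and KDM3A with DDP_apoEV was −0.0034. KDM3A with DDP_apoEV was −0.0029 with the 1 CPM filter and −0.0024 with the replicate block. With 1 library left out, the log2 fold change with DDP_apoEV ran from −0.097 to 0.098 for ADM, −0.072 to 0.197 for ALDOA, −0.106 to 0.304 for ANKRD37, −0.066 to 0.046 for KDM3A and −0.0054 to 0.035 for P4HA2. With STS_apoEV it ran from −0.244 to 0.149 for ANKRD37, −0.079 to 0.037 for BNIP3, −0.076 to 0.032 for GAPDH, −0.135 to 0.021 for PDK3 and −0.0904 to 0.014 for PKM. Between the types it ran from −0.309 to 0.047 for ANKRD37, −0.049 to 0.046 for HIF1A and −0.0055 to 0.095 for PDK3.

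Libraries with the same replicate number did not deviate together (correlations −0.0847 to 0.0547 in 9 pairs). No pairing by number was thus visible, which does not exclude that such libraries were prepared together. The replicate block called 13, 18 and 19 of the 33 genes with DDP_apoEV, with STS_apoEV and between the types, and 2359, 5297 and 6429 of all genes. Genes of the neighbouring lists were tested in the main setting alone. CA9 and HK2, with 54 and 64 counts in all, fell under the filter of the main test.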
